A study of Mus musculus with 34 samples.

Results

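The loci described here are genomic regions of mouse macrophages at which ATF3 and Jun each had a ChIP-seq peak under vehicle and JunD had none. They were chosen by merging the vehicle peak lists of ATF3, Jun and JunD from C57BL/6 cells wherever peaks overlapped by 1 bp or more, and by keeping the merged loci with a peak in the ATF3 list, a peak in the Jun list and none in the JunD list. The rule kept 1809 of 29552 merged loci (6.12%), which is 14.6% of the 12367 loci that carried both ATF3 and Jun. The other loci used for comparison were 10558 with all 3 monomers, 4829 with ATF3 and JunD but no Jun, 986 with Jun and JunD but no ATF3, 5931 with ATF3 alone, 2182 with Jun alone and 3257 with JunD alone. Because the vehicle ATF3, Jun and JunD lists chose the loci, values from those lists are given below as a description, and the comparisons rest on the 25 other lists.

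The cells were thioglycollate elicited macrophages (TGEMs), primary macrophages recruited to the peritoneum by an irritant and collected 3 days after injection. The wild-type donors were male mice, 8 weeks old, of strain C57BL/6 (C57Bl/6EiJ in the sample labels and C57BL/6J in the methods) or BALB/cJ. The cells were cultured in serum-containing medium and received either PBS (Veh) or 100 ng/mL KLA, a TLR4 agonist, for 1 h. A knockout series used Veh cells labelled PPARgKO for ATF3, Jun and JunD; the age of those mice and the promoter driving the deletion are not given in the sources used here. C57BL/6 cells were profiled for ATF3, Jun, JunD, Fos, Fra2 (the product of Fosl2) and JunB in Veh and KLA, for the non-AP-1 factors PU.1 and CEBPa in Veh and KLA, and for PPARg in Veh, the last with a mix of 3 antibodies. BALB/cJ cells were profiled for ATF3, Jun and JunD in Veh and KLA and for Fos and JunB in both, but the Veh lists of Fos (empty) and JunB (9 peaks) were not used. Each condition was deposited as 1 list of reproducible peaks, and the lists share input libraries, since peaks were called against input of the same treatment. No value below therefore has a replicate spread, the intervals (95%, Wilson for a share and Newcombe for a difference) cover counting error over loci only, and no p-value was computed. A locus without a peak is one at which no peak passed the authors' filter: absent binding, binding too weak to be called and binding in fewer of the cells cannot be told apart.

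AP-1 is a dimer of basic leucine zipper proteins of the Jun, Fos and ATF families, and the dimers recognise a 7-base TRE or an 8-base CRE. ATF3 is a stress- and TLR-inducible member that pairs with Jun proteins or with itself, Jun (c-Jun) and JunD are related Jun proteins, and Fos, Fra2 and JunB are partners that accumulate after stimulation. PU.1 and CEBPa are the factors that establish macrophage identity and open much of the enhancer landscape, and PPARg is a nuclear receptor of lipid metabolism that binds as a heterodimer with RXR. ATF family members and CEBP proteins can also form mixed dimers, whose composite site joins a part recognised by each.

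The 7 sequences below are the central 200 bp of 7 of these loci (GRCm38/mm10, plus strand, read from the reference genome). They show the range of sites beneath the peaks: the strongest locus, a strong locus with JunD in every other JunD list, a site where a CRE runs into a PU.1 site, the locus with the strongest CEBPa peaks among the 10 strongest loci, a locus that kept ATF3 and Jun in BALB/cJ with JunD in no list, and the 2 loci with a composite CEBP:ATF site among those named from the gene lists. The last 2 were picked for printing after their motifs were seen. Capitals mark exact matches, on either strand, to a TRE (TGACTCA), a CRE (TGACGTCA, TGAGCTCA or TGACCTCA), a CEBP:ATF site (TGATGCAA), a CEBP site (TTGCGCAA, TTGCACAA or TTGCATAA) or a PU.1 site (ACTTCCT).
Pfkfb3 locus, chr2:11429736-11429935: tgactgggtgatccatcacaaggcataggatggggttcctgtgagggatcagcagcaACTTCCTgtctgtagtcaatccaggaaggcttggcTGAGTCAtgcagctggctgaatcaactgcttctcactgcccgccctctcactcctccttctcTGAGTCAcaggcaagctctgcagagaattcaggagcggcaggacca
Id2 locus, chr12:25213886-25214085: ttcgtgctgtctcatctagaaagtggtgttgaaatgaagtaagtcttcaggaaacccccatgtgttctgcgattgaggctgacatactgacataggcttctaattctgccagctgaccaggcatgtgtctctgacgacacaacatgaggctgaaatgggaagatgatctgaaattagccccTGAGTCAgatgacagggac
Sirpa locus, chr2:129596045-129596244: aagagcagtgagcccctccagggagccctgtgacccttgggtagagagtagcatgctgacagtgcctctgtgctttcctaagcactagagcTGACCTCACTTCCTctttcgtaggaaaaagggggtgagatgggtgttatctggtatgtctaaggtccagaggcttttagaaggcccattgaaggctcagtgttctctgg
Cers6 locus, chr2:68796123-68796322: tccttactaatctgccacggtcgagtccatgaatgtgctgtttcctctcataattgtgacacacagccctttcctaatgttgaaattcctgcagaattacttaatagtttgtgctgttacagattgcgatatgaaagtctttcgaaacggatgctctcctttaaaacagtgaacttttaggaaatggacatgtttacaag
Crybg1 locus, chr10:44163147-44163346: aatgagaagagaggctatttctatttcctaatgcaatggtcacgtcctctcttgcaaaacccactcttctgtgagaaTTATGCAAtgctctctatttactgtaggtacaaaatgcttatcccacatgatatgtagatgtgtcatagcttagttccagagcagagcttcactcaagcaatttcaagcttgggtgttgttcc
Tlr4 locus, chr4:66821833-66822032: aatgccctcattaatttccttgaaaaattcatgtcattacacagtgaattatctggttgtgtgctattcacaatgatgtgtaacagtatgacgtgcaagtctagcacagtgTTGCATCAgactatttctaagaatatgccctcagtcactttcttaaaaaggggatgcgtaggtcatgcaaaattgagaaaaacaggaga
Klf4 locus, chr4:55534553-55534752: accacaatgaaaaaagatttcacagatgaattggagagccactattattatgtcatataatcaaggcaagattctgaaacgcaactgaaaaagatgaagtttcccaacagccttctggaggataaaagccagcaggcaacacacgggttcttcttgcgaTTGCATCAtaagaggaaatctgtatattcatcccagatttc
The Pfkfb3 window held 2 TREs and 1 PU.1 site, and the Sirpa window held a CRE whose last base was the first base of a PU.1 site. The Cers6 window held no exact match to any of these motifs, and a missing match says only that these letters are not in the window.

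The loci were mostly weak sites in the lists that chose them. Counts are the raw tag counts of the deposited lists and are compared only by rank within a list: a percentile of 100 is the strongest peak of that list. The ATF3 Veh count at these loci ran from 25 to 290 with a median of 45 (median percentile 35.7), against a median of 83 (72.4) where all 3 monomers had peaks. The Jun Veh count ran from 12 to 106 with a median of 20 (percentile 32.2), against 31 (65.6). Low ranks were not particular to these loci. The median ATF3 percentile was 42.8 at loci with ATF3 and JunD and 25.2 with ATF3 alone. The median Jun percentile was 28.1 at loci with Jun and JunD and 14.9 with Jun alone. The share of ATF3 and Jun loci that lacked JunD was 52.7% in the weakest of 10 bins by ATF3 count and 1.43% in the strongest, and 52.6% and 0.639% by Jun count. Later comparisons are therefore also given within 10 bins of the ATF3 or the Jun count. At the edge of the rule, 307 of the loci had an ATF3 or Jun peak whose scaled reproducibility (IDR) score was below 600 on a scale from 540, the lowest deposited, to 1000. The members closest to being left out were loci nearest to Dnmt3a (ATF3 count 26, score 540), to Id2 (a second locus, ATF3 count 26, score 540) and to Inhba (Jun count 15, score 540). Just outside the rule, 282 loci with all 3 monomers had a JunD score below 600, among them loci nearest to Tmbim1 (JunD count 27, score 540), Mgat5 (27, score 544) and Serpina12 (27, score 545). The rule is sensitive to its thresholds: 681 loci were kept when ATF3 and Jun peaks had to score at least 830, with the JunD list left whole, and 244 when only the stronger 50% of each of the ATF3 and Jun lists counted. The nearest JunD Veh peak lay a median of 9.38 kb away; 55 loci had one within 200 bp (3.04%) and 259 within 1 kb (14.3%).

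JunD was found at most of these loci in some other condition. Of the 1809 loci, 1612 had a JunD peak in at least 1 of the 4 other JunD lists (89.1%, interval 87.6 to 90.5), while 197 (10.9%) had none in any of the 5 JunD lists. Among the 8113 other loci that lacked JunD in C57BL/6 Veh, the share was 70.8%: 72.7% of loci with ATF3 alone and 65.6% of loci with Jun alone. The 4 lists were unequal. A JunD peak was present at 1193 loci after KLA in C57BL/6 (65.9%, against 67.2% of all merged loci), at 1094 in BALB/cJ Veh (60.5%, against 64.9%), at 1084 in BALB/cJ KLA (59.9%, against 63.5%) and at 559 in the PPARg knockout Veh cells (30.9%, against 43.3%). Those background shares include loci that the rule had already placed in the JunD list.

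The number of JunD lists per locus was spread widely: 343 loci had JunD in 1 of the 4 lists, 464 in 2, 561 in 3 and 244 in all 4. The JunD peaks at these loci were of middling strength. Their median percentile was 48.9 in C57BL/6 KLA, 52.8 in BALB/cJ Veh, 55.4 in BALB/cJ KLA and 45.4 in the knockout, where loci with all 3 monomers stood at 76.5, 81.3, 79.5 and 81.0. The rule placed that set in the JunD Veh list. Loci with ATF3 alone, which lack JunD in Veh as well, stood at 42.7, 39.3, 45.9 and 41.3. The BALB/cJ JunD Veh list is longer than the C57BL/6 JunD Veh list, with 28652 against 19653 peaks. Cut to the strongest 19653 peaks, it covered 49.6% of the loci; this comparison was added after the data were seen.

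**Figure D1:**
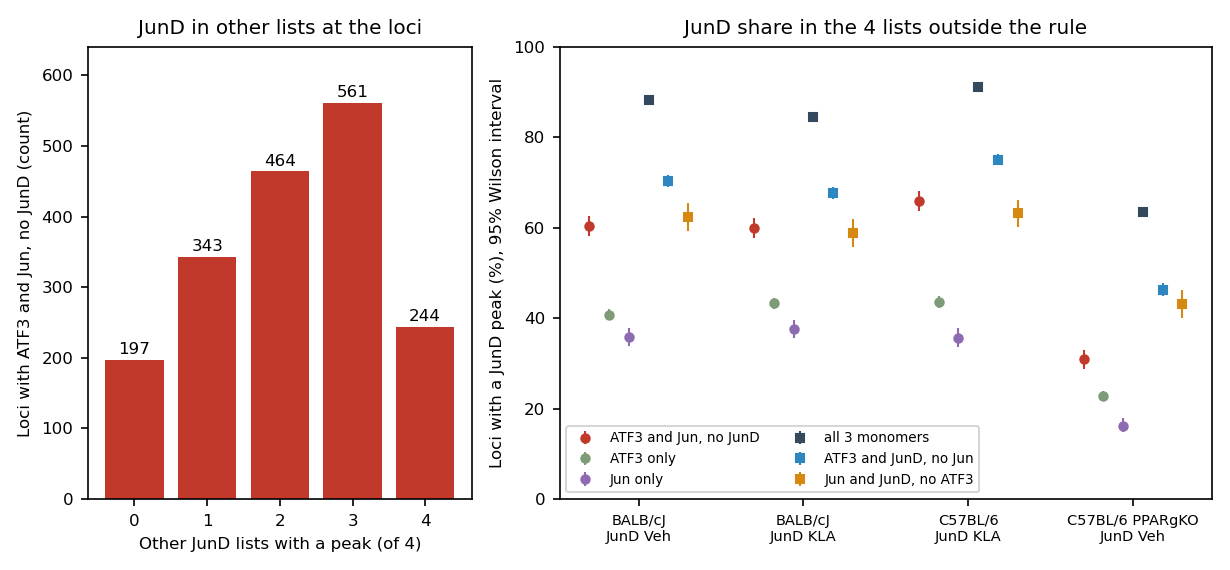
JunD peaks in other lists at loci with ATF3 and Jun but no JunD in C57BL/6 Veh: the number of the 4 other JunD lists with a peak per locus, and the share of loci with a peak in each list with 95% Wilson intervals. Of 1809 loci, 197 had none and 244 had JunD in all 4, and the knockout list has the lowest share, 30.9%.

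Loci with ATF3 alone also lack JunD under Veh. JunD was more frequent at the loci with ATF3 and Jun than at loci with ATF3 alone of like ATF3 count: the difference within ATF3 bins was 19.1 percentage points after KLA (interval 16.5 to 21.6), 17.0 points in BALB/cJ Veh (14.5 to 19.6), 14.3 points in BALB/cJ KLA (11.7 to 16.9) and 6.35 points in the knockout (3.96 to 8.75). This set of comparisons was also added after the data were seen. Loci with all 3 monomers had JunD in C57BL/6 Veh by the rule and these loci did not. JunD differences from that set therefore reflect how the sets were chosen and are given as description. In BALB/cJ Veh the JunD difference from it was -27.7 points raw (-30.1 to -25.4) and -16.6 points within ATF3 bins (-19.1 to -14.1). In the knockout the JunD difference was -32.6 points raw and -19.6 points within ATF3 bins (-22.2 to -17.0).

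Few of the loci showed the same pattern in BALB/cJ cells. In BALB/cJ Veh, ATF3 had a peak at 987 of the loci (54.6%, against 53.8% of all merged loci) and Jun at 484 (26.8%, against 33.8%). The rule required ATF3 and Jun in C57BL/6 Veh, while the merged loci include some without ATF3 or without Jun. Both were present at 360 loci, and JunD was also present at 328 of those (91.1%), compared with 98.7% at 6082 such loci of the all-3 set, 87.0% at 494 with ATF3 alone and 88.2% at 119 with Jun alone. ATF3 and Jun without JunD were found in BALB/cJ Veh at 32 loci (1.77%, against 0.9% of all merged loci), in C57BL/6 KLA at 31 (1.71%, against 1.18%), in BALB/cJ KLA at 33 (1.82%, against 1.12%) and in the knockout at 35 (1.93%, against 2.5%). The pattern was thus rare everywhere. In C57BL/6 KLA its share was 1.71% (interval 1.21 to 2.42) at these loci, 1.59% with ATF3 and JunD and 1.45% with ATF3 alone. The same 3 shares were 1.77% (1.26 to 2.49), 1.16% and 1.08% in BALB/cJ Veh. They were 1.82% (1.30 to 2.55), 1.24% and 0.944% in BALB/cJ KLA, and 1.93% (1.39 to 2.68), 2.32% and 0.877% in the knockout. The excess over the background in 3 of the 4 settings thus rests on few loci, and similar sets came close to it. Compared with loci with ATF3 and JunD, the ATF3 share in BALB/cJ Veh differed by -1.31 points (-4.00 to 1.37) before and by 3.56 points (1.08 to 6.03) after binning on the ATF3 count, so the direction depended on that step.

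KLA changed which monomers were called at the loci. After KLA in C57BL/6, ATF3 remained called at 1431 loci (79.1%, against 73.6% of all merged loci), while Jun was called at 670 (37.0%, against 44.1%). Fos, barely called in Veh (40 loci, 2.21%, against 4.12%), was called at 822 after KLA (45.4%, against 52.8%). Fra2 went from 113 loci (6.25%, against 16.2%) to 362 (20.0%, against 26.8%) and JunB from 11 (0.608%, against 1.15%) to 422 (23.3%, against 33.4%). Lists of the same antibody differ in length between Veh and KLA, 1804 and 24365 peaks for Fos, so these are counts of called peaks rather than changes in occupancy. In BALB/cJ KLA, ATF3 was called at 1339 loci (74.0%, against 71.7%), Fos at 1294 (71.5%, against 72.1%), JunB at 779 (43.1%, against 47.2%) and Jun at 398 (22.0%, against 29.5%). Of the 6 monomers profiled after KLA in C57BL/6, 274 loci had none (15.1%, against 19.4% of all merged loci) and 152 had all 6 (8.40%, against 17%). The only KLA lists of AP-1 monomers in which the loci exceeded the background were the 2 ATF3 KLA lists. Each of these loci had an ATF3 Veh peak by the rule, while the background includes loci without one, so that excess is not separate from the rule. ATF3 after KLA in C57BL/6 was called at 94.0% of loci with all 3 monomers, 80.7% with ATF3 and JunD and 60.0% with ATF3 alone. In BALB/cJ KLA those shares were 91.8%, 78.1% and 58.3%. Against loci with all 3 monomers, the Fos KLA share in C57BL/6 was lower by -34.4 points (-36.8 to -32.0), and by -19.4 points within ATF3 bins (-22.0 to -16.7). Fos after KLA was called at 55.8% of loci with ATF3 and JunD and at 44.6% with Jun and JunD. At loci with ATF3 alone and with Jun alone it was called at 30.4% and 24.2%. A low Fos share was therefore not particular to these loci.

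**Figure D2:**
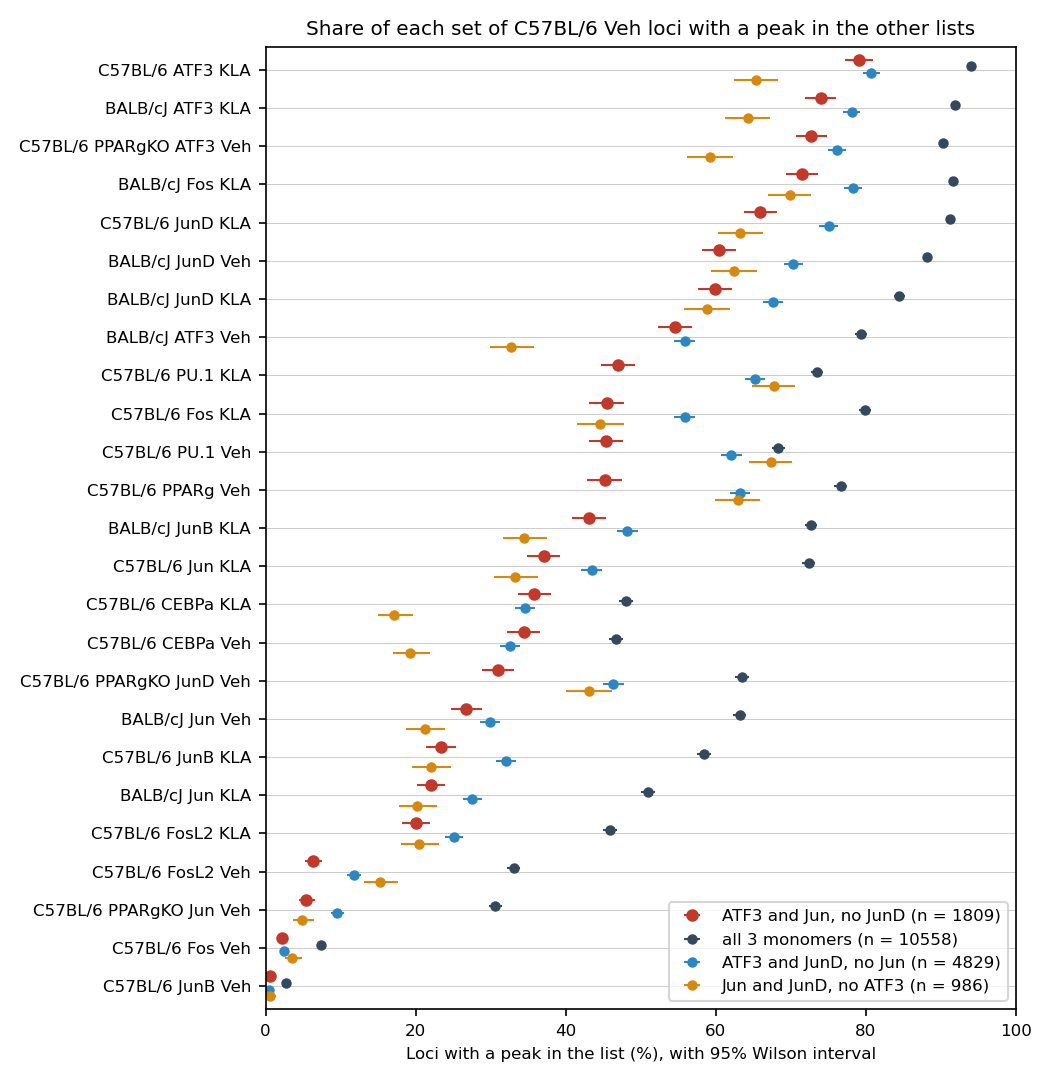
Share of loci with a peak in each list outside the rule, for loci with ATF3 and Jun but no JunD beside comparison loci, with 95% Wilson intervals. Loci lacking JunD lie below loci with all 3 monomers in each of the lists for PU.1 (45.4% against 68.3% in Veh), PPARg (45.2% against 76.6%) and C57BL/6 Fos after KLA (45.4% against 79.9%). For C57BL/6 Fos after KLA, loci with Jun and JunD but no ATF3 lie close to the loci lacking JunD, at 44.6%.

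In the PPARg knockout, ATF3 was the most often called of the 3 monomers, followed by JunD and Jun. The order was the same over all merged loci (70.1%, 43.3% and 13.8%). By the rule each of these loci had ATF3 and Jun and no JunD in wild-type Veh, while the merged loci include some without ATF3 or without Jun. ATF3 had a peak at 1316 of the loci (72.7%, against 70.1% of all merged loci) and Jun at 98 (5.42%, against 13.8%); the knockout Jun list holds 4290 peaks against 15548 in wild-type cells. At 824 loci (45.6%, against 30.9% of all merged loci) ATF3 was the only one of the 3 monomers called in the knockout, as it was at 42.8% of loci with ATF3 alone and 25.1% of loci with all 3 monomers. Loci with a wild-type PPARg peak had more knockout peaks than loci without: ATF3 at 76.7% and 69.5%, Jun at 7.59% and 3.63%, and JunD at 39.4% and 23.9%. The same ordering by PPARg peak was seen at loci with all 3 monomers, where JunD was called at 69.4% with and 44.0% without PPARg, and Jun at 35.0% and 16.1%. Whether the PPARgKO libraries differ from the wild-type ones by depth was not tested, since the deposited lists give no library totals.

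PU.1 and PPARg were less often present than at loci that carried JunD, while for CEBPa the order depended on the comparison. In Veh, PU.1 had a peak at 821 loci (45.4%, against 56.8% of all merged loci), PPARg at 817 (45.2%, against 58.4%) and CEBPa at 622 (34.4%, against 32.3%). After KLA the figures were 850 for PU.1 (47.0%, against 59.8%) and 648 for CEBPa (35.8%, against 33.5%). All 3 factors were present in Veh at 177 loci (9.78%, against 15.4% of all merged loci), 2 at 513 (28.4%, against 34.7%), 1 at 703 (38.9%, against 32.1%) and none at 416 (23.0%, against 17.9%).

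The PU.1 difference stood within bins of either count. It was -23.0 points against loci with all 3 monomers (-25.4 to -20.5), -20.1 within ATF3 bins (-22.8 to -17.5) and -16.3 within Jun bins (-18.9 to -13.6). Against loci with ATF3 and JunD but no Jun, PU.1 was lower by -16.7 points raw (-19.4 to -14.0) and -16.4 within ATF3 bins (-19.1 to -13.7). PPARg was lower by -31.5 points against loci with all 3 monomers (-33.9 to -29.0), and by -18.1 points raw (-20.8 to -15.4) and -16.9 points within ATF3 bins (-19.5 to -14.2) against loci with ATF3 and JunD.

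CEBPa went the other way once ATF3 strength was taken into account. The raw difference from loci with all 3 monomers was -12.3 points (-14.7 to -9.92), but within ATF3 bins it was 6.53 points (4.09 to 8.98) and within Jun bins -3.49 points (-6.09 to -0.887). Against loci with ATF3 and JunD it was 1.85 points raw (-0.683 to 4.43) and 5.47 within ATF3 bins (3.06 to 7.87). In the strongest ATF3 bin, 90.3% of the 31 loci had CEBPa in Veh against 74.6% of 2138 loci with all 3 monomers; in the weakest bin it was 16.7% of 216 against 14.9% of 194. The share was higher than at loci with all 3 monomers in each bin except bin 4, where it was 25.4% of 280 against 27.8% of 730. Compared with loci with ATF3 alone in ATF3 bins, PU.1 was higher by 7.31 points (4.67 to 9.94), PPARg by 8.14 points (5.53 to 10.8) and CEBPa by 2.96 points (0.591 to 5.32).

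**Figure D3:**
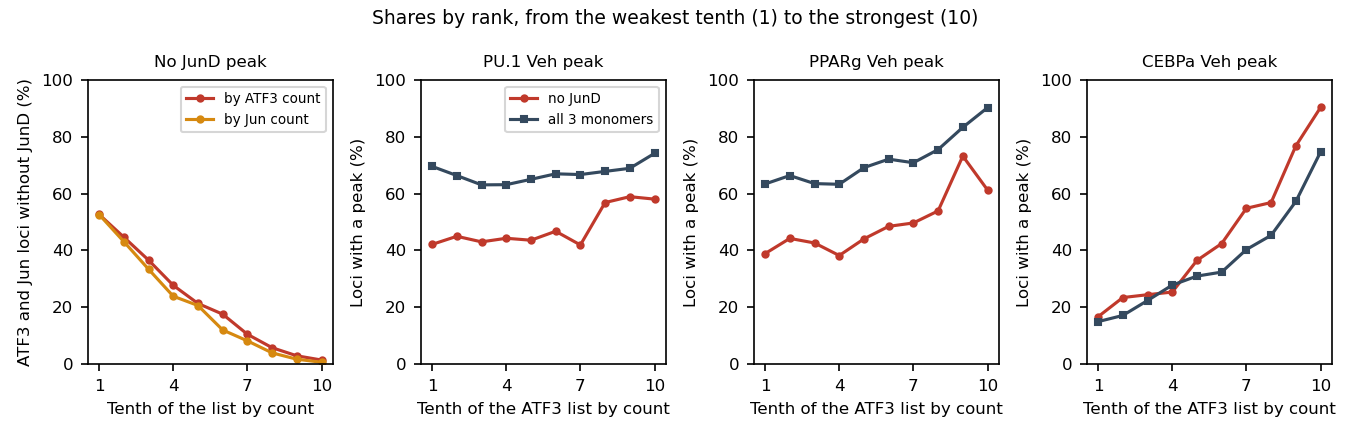
The first panel gives the share of ATF3 and Jun loci without JunD by bin of the ATF3 or Jun Veh count, 1 weakest to 10 strongest, which falls from 52.7% to 1.43% by ATF3; the other panels give shares with a PU.1, PPARg or CEBPa Veh peak by ATF3 bin for loci with ATF3 and Jun but no JunD and for loci with all 3 monomers. In the strongest bin CEBPa was present at 90.3% of 31 loci lacking JunD and at 74.6% of 2138 loci with all 3.

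**Figure D4:**
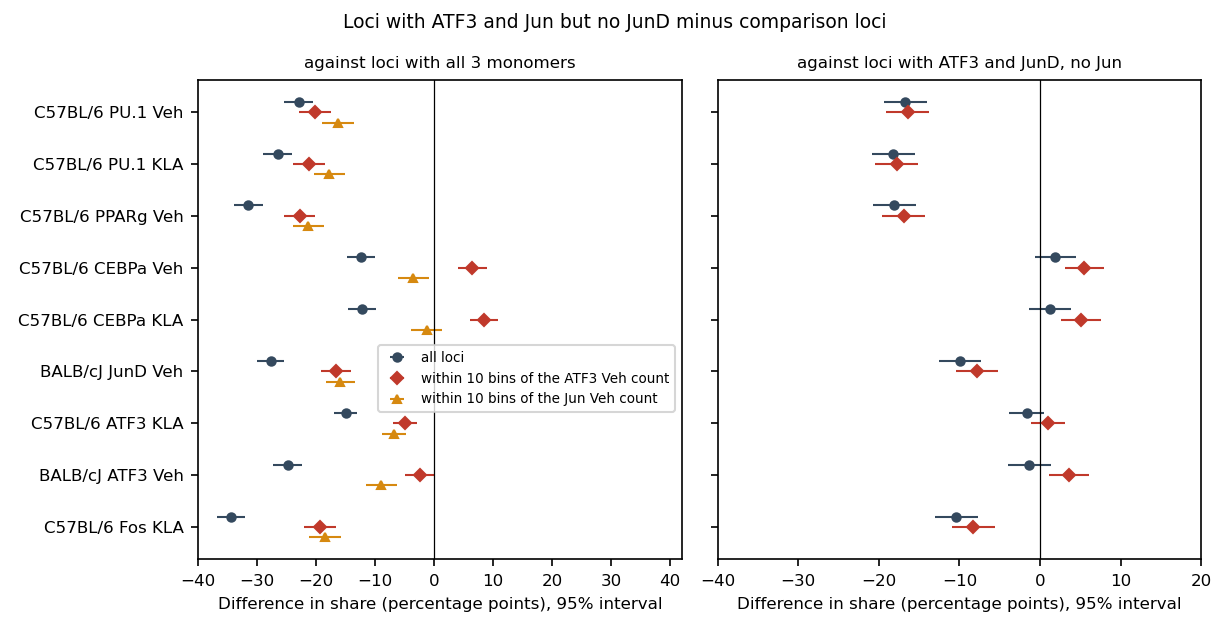
Difference in the share of loci with a peak, loci with ATF3 and Jun but no JunD minus comparison loci, over all loci and within bins of the ATF3 or Jun Veh count, with 95% intervals. PU.1 and PPARg lie below 0 in every setting shown, and CEBPa Veh moves from -12.3 points to 6.53 points within ATF3 bins.

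Motif content differed between the sets. Motifs were searched in the central 200 bp, on both strands and by exact letters except for the full PPAR motif. A TRE was present in 22.8% of the loci, against 26.0% of all merged loci and 38.1% of loci with all 3 monomers, a difference of -15.3 points that became -7.73 within ATF3 bins (-10.0 to -5.45). Against loci with ATF3 and JunD, TREs differed by -0.666 points (-2.90 to 1.65). TREs lay a median of 25.5 bp from the centre of the locus. A CRE was found in 8.74% (background 7.27%). The composite CEBP:ATF site was more frequent than at loci that carried JunD: 4.26%, against 3.43% of all merged loci, 1.93% of loci with all 3 monomers and 2.73% of loci with ATF3 and JunD. It was less frequent than at loci with ATF3 alone, which had it at 9.85% (interval 9.12 to 10.6, against 3.42 to 5.29 at these loci). The difference from loci that carried JunD was 2.33 points for the all-3 set (1.44 to 3.39), 4.64 within ATF3 bins (3.56 to 5.72) and 1.94 within Jun bins (0.955 to 2.92), and 2.47 points for loci with ATF3 and JunD in ATF3 bins (1.46 to 3.48).

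The PU.1 motif was at 19.2% (background 21.7%), the CEBP motif at 6.31% (5.09%), Runx (TGTGGTT) at 6.75% (7.37%), the E-box (TCACGTG) at 3.76% (3.5%) and Sp1 (CCCCGCCC) at 3.87% (5.34%). The NFkB motif (GGAATTTCC, GGACTTTCC or GGAAATTCC) was at 0.498% (0.646%) and the IRF motif, a pair of GAAA elements with 2 bases between, at 3.10% (3.02%). The single PPAR element AGGTCA was at 17.1% (16.5%) and the full motif, a repeat of that element 1 base apart with up to 2 mismatches, at 3.54% (3.68%). The CRE form TGACCTCA contains the PPAR element on the other strand, so those matches overlap. Motif and peak went together for PU.1 and CEBPa: a PU.1 peak was found at 73.6% of loci with a PU.1 motif and 38.6% of those without, a CEBPa peak at 80.7% with and 31.2% without a CEBP motif, and at 70.1% with and 32.8% without a CEBP:ATF site. For PPARg, a peak was at 62.5% of the 64 loci with the full motif and 44.6% of those without, but at 44.5% of loci with the single element and 45.3% of those without. Loci with a TRE more often had Fos after KLA (71.2% against 37.8%) and JunD after KLA (81.6% against 61.3%). Loci with a CEBP:ATF site had JunD in BALB/cJ Veh less often (45.5% against 61.1%) and Fos after KLA less often (27.3% against 46.3%), with ATF3 after KLA at 81.8% against 79.0%.

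The 197 loci with JunD in no list had lower ATF3 ranks than the rest, and this split was made after the data were seen. Their median ATF3 percentile was 23.3, against 37.1 for the 1612 others, and their median Jun percentile 19.2 against 32.2. Few peaks were called at them in general: a median of 3 of the 21 lists outside the rule and JunD, against 8. ATF3 after KLA in C57BL/6 was at 43.1% of them against 83.5%. The lower peak shares below are therefore not particular to Fos. Among the 197 loci a TRE, which is a sequence match and no called peak, was present in 7.61% against 24.7%. Fos after KLA was at 7.11% against 50.1%, JunB after KLA at 1.02% against 26.1% and Jun after KLA at 3.55% against 41.1%. The shares of all merged loci were 26.0%, 52.8%, 33.4% and 44.1%. Within ATF3 bins, the Fos difference was 40.9 points (36.4 to 45.4) and the TRE difference 18.3 points (14.0 to 22.6) in favour of loci with JunD elsewhere. No other motif was lower at the 197 loci beyond counting error within ATF3 bins. A CRE was at 8.63% of them against 8.75% and the PU.1 motif at 19.8% against 19.2%. The CEBP:ATF site was at 6.60% against 3.97%, a difference of -4.57 points within ATF3 bins (-7.63 to -1.52). CEBPa in Veh was at 33.5% of the 197 and 34.5% of the others, with a difference of -6.08 points within ATF3 bins (-12.5 to 0.344). Of these 197 loci, 2 kept ATF3 and Jun in BALB/cJ Veh and ATF3 in the knockout. The first is chr10:44163109-44163383, at -14.4 kb from the start of Crybg1 (negative is upstream), with ATF3 at 60 and Jun at 21 counts in BALB/cJ Veh, a CEBPa Veh peak of 87 counts and the CEBP site shown above. The second lies on chromosome 18, 142.77 kb downstream of the start of Gata6, with BALB/cJ Veh counts of 42 for ATF3 and 26 for Jun. It was weak in C57BL/6 Veh (percentile 28.9 for ATF3 and 10.9 for Jun), and a JunD Veh peak lay 843 bp away.

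By position most of the loci were distal, as were most of the merged loci. Of the 1809, 279 lay within 1 kb of a transcription start (15.4%, against 18% of all merged loci) and 71 in exons (3.92%, against 4.11%). Another 879 lay in introns (48.6%, against 47.3%) and 580 between genes (32.1%, against 30.6%). The median distance to a start was 17.8 kb, against 15.2 kb over all merged loci. Promoter loci were 3.34 points more frequent than at loci with all 3 monomers (1.63 to 5.19) and differed by -2.95 points from loci with ATF3 and JunD (-4.89 to -0.910). The loci were nearest to 1511 genes, of which 1273 had 1 locus, 191 had 2 and 47 had 3 or more. The most were 5 each near Klf6, a zinc finger regulator, of 55 merged loci, and Nars2, a mitochondrial asparaginyl-tRNA synthetase, of 21. Nlrp3, the inflammasome sensor, had 4 of its 8 merged loci in the set, and Itga4, an integrin, 4 of 10. The share over all merged loci was 6.12%. Both genes were taken from those with the most loci, which also include Lpp (4 of 53), Bhlhe40 (4 of 33) and Btg1 (4 of 29).

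Loci nearest to genes of 8 lists made up small shares, some above and some below the background. Loci nearest to cytokines and chemokines were 11 of 1809 (0.608%, against 0.497% of all merged loci), to TLR4 and NFkB signalling genes 10 (0.553%, against 0.596%), to PPARg and lipid genes 9 (0.498%, against 0.653%) and to lysosome genes 11 (0.608%, against 0.765%). Loci nearest to macrophage surface receptors were 22 (1.22%, against 1.09%), to AP-1 and other bZIP genes 14 (0.774%, against 1.03%), to MAP kinase phosphatases and signal feedback genes 20 (1.11%, against 1.25%) and to actin cytoskeleton and adhesion genes 15 (0.829%, against 0.883%). The nearest gene is a label of position, and no expression was measured here.

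The strongest cytokine loci were near Il12b, the shared subunit of IL-12 and IL-23 (ATF3 count 61, Jun 39, with a CRE), and Pdgfa, a growth factor (61 and 37, with a TRE), each with JunD in BALB/cJ Veh only. A locus at the promoter of Ccl12, a monocyte chemokine, had JunD in all 4 other lists. Near Tlr4, the receptor that KLA engages, a locus with 121 ATF3 counts and 31 Jun counts carried a CEBP:ATF site, CEBPa peaks in Veh and KLA, and JunD only after KLA. The Klf4 locus, also with a CEBP:ATF site (ATF3 91, Jun 28), had the same layout: CEBPa in Veh and KLA, ATF3 in the knockout, and JunD only in the 2 KLA lists. The Pparg locus (99 and 46) had JunD in all 4 other lists and PU.1 and PPARg in Veh, with no ATF3 peak in the knockout. The locus near Atf3 itself (60 and 26) had JunD in 3 lists and PU.1, CEBPa and PPARg in Veh, and the locus near Spry2, a feedback inhibitor of receptor tyrosine kinase signalling (80 and 32, with a TRE), had JunD in all 4.

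Other loci named from the lists showed the same mixture. Near Tnip1, which restrains NFkB signalling, a locus with 71 ATF3 and 30 Jun counts had JunD in 3 other lists and neither PU.1 nor PPARg in Veh, whereas the locus near Irak2, a kinase of the TLR pathway (68 and 32, with a PU.1 site), had JunD in 3 lists and PU.1, CEBPa and PPARg in Veh. Near Lpl, the lipoprotein lipase (65 and 26, with a TRE), JunD was in 3 lists and PPARg in Veh. Of the lysosomal genes, the Ctsc locus (81 and 41) and the promoter locus of the sialidase gene Neu1 (80 and 26) each held a TRE and a PPARg peak and no PU.1 peak, with JunD in 3 and 4 lists, and the Lgmn locus (53 and 32) held a PU.1 site with PU.1 peaks in Veh and KLA.

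The bZIP gene Crem had a locus at its start (98 and 25, with a CRE) and Jdp2, a dimer partner of Jun proteins, one upstream (55 and 28, with a TRE); JunD was in 3 lists at both, and CEBPa in Veh at Crem only. Near Zfp36l1, an mRNA decay factor (85 and 32, with a TRE), JunD was in 3 lists, and near Dusp6, an ERK phosphatase (70 and 22), in all 4. Of the cytoskeletal genes, the loci near Pxn, the focal adhesion protein paxillin (91 and 53), and Myh9, a non-muscle myosin (61 and 29, with a TRE), had JunD in all 4 lists, and that near Iqgap1, a scaffold protein (56 and 24), in 3. Each of these loci except that of Tnip1 had an ATF3 peak in the knockout.

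Of the 10 strongest loci, 9 had JunD in 3 or 4 of the other JunD lists. Over all 1809 loci, 31.0% had JunD in 3 of those lists and 13.5% in all 4. The 10 were ranked by the lower of their ATF3 and Jun Veh percentiles. The first, chr2:11429712-11429958, between genes and 71.9 kb from the start of Pfkfb3, a regulator of glycolysis, had ATF3 at 290 counts (percentile 99.7) and Jun at 106 (99.9). Its ATF3 peak had 204 counts in BALB/cJ Veh, 226 in the knockout, 419 after KLA in C57BL/6 and 345 in BALB/cJ KLA, each above percentile 99. Its only JunD peak was in BALB/cJ KLA, with 254 counts (percentile 99.9), and no JunD Veh peak lay closer than 12041 bp. The locus was thus at the top of the ATF3 lists and absent from 4 of the 5 JunD lists.

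The locus near Id2, an inhibitor of helix-loop-helix factors, is chr12:25213793-25214177 (ATF3 256, Jun 80). It had JunD at 800 counts after KLA (percentile 97.9), 180 in BALB/cJ Veh (98.9), 178 in BALB/cJ KLA (97.9) and 133 in the knockout (97.8). The Cers6 locus, upstream of a ceramide synthase, had the CEBPa peaks of highest rank among the 10, with 325 counts in Veh (percentile 99.8) and 380 after KLA (99.98), and JunD in all 4 lists. The Sirpa locus, 2.53 kb into the gene of a CD47 receptor, and the Mylk2 locus had a JunD Veh peak 182 bp away, and the Gm9733 locus 316 bp away, so part of the strongest set lies beside JunD peaks that the merging did not join. The Mylk2 locus had JunD at 783 counts after KLA (percentile 97.6) and 103 in the knockout (94.0).

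At the remaining loci of the 10, JunD was in at least 3 of the 4 lists. The Slc7a15 locus (ATF3 152, Jun 51) held a PU.1 site and a PU.1 Veh peak of 623 counts (percentile 88.8), with JunD at 165 counts in BALB/cJ Veh (98.2). The Tex44 locus (143 and 49) had JunD at 704 counts after KLA (95.4) and none in BALB/cJ Veh. The Cxcr4 locus (114 and 50), at -113 kb from the start of a chemokine receptor gene, had PU.1 at 807 counts in Veh (95.4) and JunD at 135 in BALB/cJ Veh (95.6), and it had none in the knockout. The Dpep2nb locus (166 and 44) had CEBPa at 199 counts in Veh (94.8) and PU.1 at 180 (27.5). Next in rank after the 10, a second Cxcr4 locus (106 and 58), at -132 kb, had PU.1 at 831 counts in Veh (95.95).

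**Figure D5:**
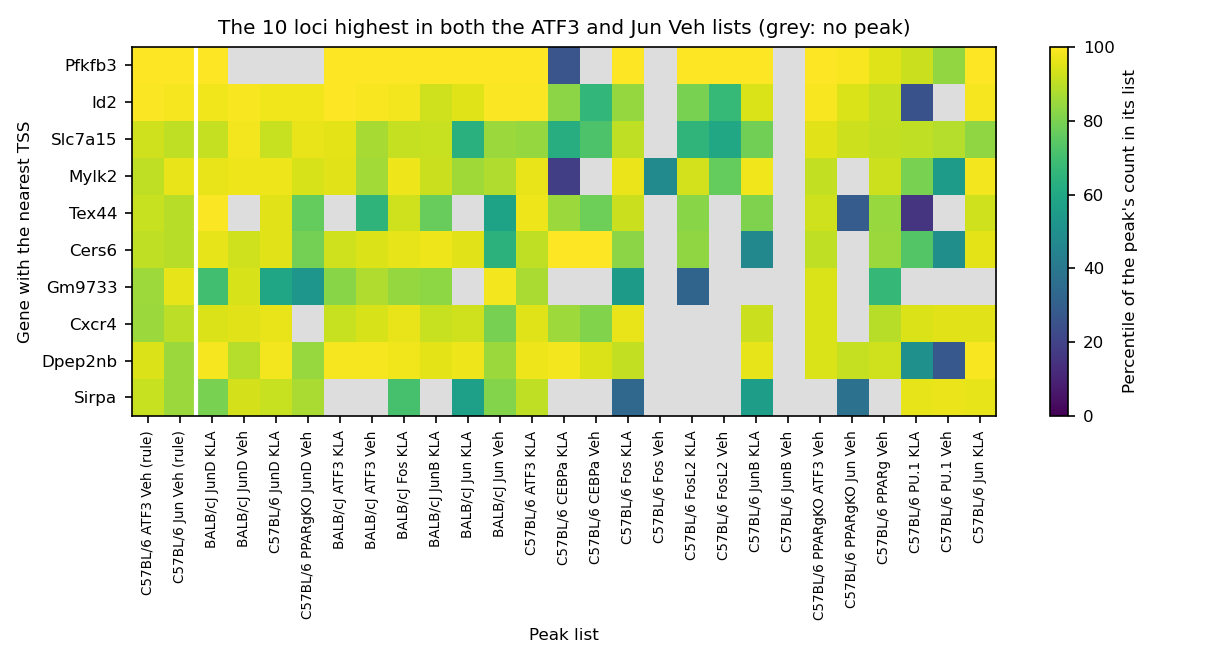
Percentile of the peak count within each list at the 10 strongest loci, JunD lists first; empty cells are lists with no peak. Pfkfb3 has 1 JunD list filled, and the 9 others have 3 or 4.

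The cell label was set beside marker genes with PU.1 Veh peaks: a peak lay within 5 kb of the start of 8 of 8 macrophage markers, 2 of 4 B cell markers (Cd79a, Ms4a1), 1 of 4 neutrophil markers (Elane), 1 of 4 mesothelial or fibroblast markers (Upk3b), 0 of 4 T cell markers and 0 of 4 mast cell markers. These counts have no share over all genes beside them, so they describe the markers and do not test the label. The lists used held 463 to 41573 peaks, with summed counts from 9196 for JunB Veh to 13809143 for PU.1 Veh, and the deposited counts were not scaled to a common depth.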

How the data were processed

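ChIP-seq was performed on TGEMs, and 34 samples were assigned to conditions from their labels. The authors aligned reads with Bowtie2 to mm10 (BALB/cJ reads to a strain genome, with positions shifted back), called peaks of size 200 bp with HOMER against input, and kept peaks with an irreproducible discovery rate below 0.05 by IDR 2.0.3. The deposited lists give each peak's raw count, not scaled to depth, and a scaled IDR score; replicates were combined by the authors. Of 30 lists, 28 were used: the BALB/cJ Fos Veh list is empty and the BALB/cJ JunB Veh list holds 9 peaks. Overlap was 1 bp or more. Shares have Wilson intervals and differences Newcombe or, within 10 count bins, Mantel-Haenszel intervals. Motifs and nearest genes used GRCm38 with GENCODE annotation. Computations used scipy 1.17.1, numpy 2.4.6 and pandas 2.3.3 under Python 3.11.15 and were tested on simulated data. The loci, the gene lists, the motifs and the rule for named loci (the 10 strongest by the lower of the ATF3 and Jun percentiles; up to 5 each with ATF3 and Jun kept in BALB/cJ and JunD in no list, with JunD in all other lists, and with PU.1, CEBPa and PPARg; the genes nearest to most loci; loci at the edge of the rule; up to 3 per gene list) were chosen with earlier results of these data known. Alternatives were other overlap rules, cut lists and score thresholds, and 3 were added after the data were seen.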

Additional observations from a re-analysis of the deposited data

How the results depend on the processing

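Each condition is 1 list, so leaving out a replicate could not be done, and no paired analysis was possible because the lists hold no replicates and no test was made. Shares of the loci are given in the order JunD in BALB/cJ Veh, BALB/cJ KLA, C57BL/6 KLA and the knockout, then C57BL/6 ATF3 KLA, C57BL/6 Jun KLA, BALB/cJ ATF3 Veh, BALB/cJ Jun Veh, knockout ATF3, PU.1 Veh, CEBPa Veh and PPARg Veh. Keeping only ATF3 and Jun peaks scoring at least 830 left 681 loci with 71.1%, 67.3%, 80.8%, 37.6%, 90.5%, 48.8%, 69.9%, 38.9%, 83.3%, 48.6%, 42.7% and 51.8%. Keeping the stronger 50% of the ATF3 and Jun lists left 244 loci with 79.5%, 79.1%, 89.3%, 46.3%, 96.3%, 63.5%, 83.6%, 54.1%, 88.9%, 58.6%, 50.4% and 60.7%. Cutting each other list to its strongest 5000 peaks gave 2.82%, 5.97%, 7.08%, 3.21%, 8.29%, 7.85%, 8.29%, 5.31%, 6.91%, 7.68%, 13.6% and 5.75%. Requiring peak centres within 100 bp gave 57.9%, 56.99%, 63.2% and 28.0% for JunD, 76.2% and 34.7% for ATF3 and Jun KLA, 69.1% for knockout ATF3, 39.2% for PU.1, 32.1% for CEBPa and 40.2% for PPARg. The BALB/cJ JunD Veh list cut to the C57BL/6 length gave 49.6%. Motif shares also depended on the search. In the central 100 bp a TRE was at 17.8% of the loci and 21.3% of all merged loci, and a CEBP:ATF site at 2.88% and 2.85%. With 1 mismatch allowed, the TRE shares were 68.9% and 67.8% and the CEBP:ATF shares 32.7% and 25.2%. The TRE order against all merged loci thus turned with 1 mismatch, and the CEBP:ATF excess nearly vanished in the narrow window. Within ATF3 bins, differences turned for CEBPa against the all-3 set in Veh (6.53 points) and KLA (8.46), BALB/cJ ATF3 Veh against ATF3 and JunD (3.56) and the Sp1 motif against the all-3 set (-2.39). BALB/cJ ATF3 Veh against the all-3 set was -2.37, BALB/cJ Jun Veh against ATF3 and JunD -0.210 and knockout ATF3 -0.260, with intervals that hold 0, while CEBPa Veh against ATF3 and JunD became 5.47. The cause of these shifts was not tested.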

Other observations

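By chromosome, the loci with ATF3 and Jun but no JunD made up between 5.04% (chromosome 14) and 9.31% (chromosome X) of merged loci.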
